A study of Mus musculus with 12 samples.

Results

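The *miR-15/16* family in E18.5 mouse liver was represented by 5 mature miRs (*mmu-miR-15a-5p*, *mmu-miR-15b-5p*, *mmu-miR-16-5p*, *mmu-miR-195a-5p* and *mmu-miR-497a-5p*). They were chosen by name from the 1927 mature miRs of the count table and not by a cut on their counts. Earlier results of these data were known when they were chosen. Liver miR-seq covered 12 female fetuses with 1 library each, 5 wild-type (WT) littermates and 7 *Mir483*Pat-KO mutants. Mutants inherited from the father a constitutive, Cre-mediated deletion of *Mir483*, the miR gene lying inside the imprinted gene *Igf2*. The allele was made in C57BL/6N-derived JM8.F6 ES cells, from a pair of independent clones, and the colony was kept on C57BL/6J. The sources used here do not give the clone from which each fetus descended.

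A miR guides a silencing complex to mRNAs, chiefly by pairing of its seed, a short stretch near the 5′ end, with matching sites in the target. The *miR-15/16* family is known for repression of cyclins, cyclin-dependent kinases and other G1/S genes, and of the anti-apoptotic gene *Bcl2*, and it is associated with cell-cycle arrest and with the slowing of proliferation as organs mature. Fetal liver holds dividing hepatoblasts and hepatocytes beside a large population of blood-forming, mostly erythroid, cells, and these cell types were not separated in whole-liver RNA.

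All 5 members carry the same seed, AGCAGCA, at bases 2 to 8. The mature sequences of the members are shown first, with the seed in capitals and read 5′ to 3′, because the shared seed defines the family and the bases after it decide how far reads of one member can be told from another. *miR-322-5p*, a miR of another locus with the same seed, and the 3p arms of the *miR-15* and *miR-16* hairpins, which do not carry it at bases 2 to 8, follow because their levels are set beside the members. All sequences are those of RefSeq (GRCm38.p6).
mmu-miR-15a-5p: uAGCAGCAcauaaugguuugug
mmu-miR-15b-5p: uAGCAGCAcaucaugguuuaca
mmu-miR-16-5p: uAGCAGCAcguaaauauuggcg
mmu-miR-195a-5p: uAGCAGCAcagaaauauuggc
mmu-miR-497a-5p: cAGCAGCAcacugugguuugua
mmu-miR-322-5p: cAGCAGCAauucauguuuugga
mmu-miR-15a-3p: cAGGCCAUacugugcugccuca
mmu-miR-15b-3p: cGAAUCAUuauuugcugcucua
mmu-miR-16-1-3p: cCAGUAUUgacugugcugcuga
mmu-miR-16-2-3p: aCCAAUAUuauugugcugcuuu

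The closest pair was *miR-16-5p* and *miR-195a-5p*, identical at 19 of 21 bases and separated by G10A and U11G, where the base of *miR-16-5p* comes first and positions count from the 5′ end. *miR-15a-5p* and *miR-15b-5p* were identical at 18 of 22 bases and separated by A12C, G20A, U21C and G22A. *miR-16-5p* and *miR-497a-5p* shared only 11 of 22 bases. How reads with mismatches were shared among such near-identical miRs is not given in the sources used here.

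The members come from 3 clusters. In RefSeq coordinates of GRCm38.p6, *Mir15a* spans chr14:61632038-61632096 and *Mir16-1* chr14:61631894-61631957 on the minus strand, from the first to the last mature base, and both lie in an intron of the non-coding gene *Dleu2*. *Mir15b* (chr3:69009775-69009834) and *Mir16-2* (chr3:69009918-69009981) lie on the plus strand in an intron of *Smc4*, a protein-coding gene for a condensin subunit. *Mir497* (chr11:70234730-70234790) and *Mir195a* (chr11:70235062-70235121) lie on the plus strand of chromosome 11. They overlap no gene of the GENCODE annotation apart from miR genes, which were not considered. *miR-16-5p* is encoded by both *Mir16-1* and *Mir16-2*, so its reads cannot be assigned to either cluster, whereas the 3p arms of the 2 genes differ in sequence.

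Libraries held 711810 to 1211160 miR counts in WT and 658665 to 921068 in *Mir483*Pat-KO. The deleted gene matched the labels: *miR-483-3p* was at 1071 ± 103 CPM (the count relative to the library's total of miR counts, scaled by TMM, which corrects for composition) in WT (SD, n = 5) and 15.2 ± 10.8 CPM in *Mir483*Pat-KO (SD, n = 7). A library index of 37 to 41 marked the WT libraries and 42 to 48 the mutant libraries, so index order and genotype cannot be told apart. Animal numbers fell in a lower range (4 WT and 4 *Mir483*Pat-KO) and an upper range (1 WT and 3 *Mir483*Pat-KO), for which values are given where they bear on a result. Nothing in the labels says whether fetuses shared a litter.

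The family was a small and uneven part of the liver's miRs. Its members together took 0.104% to 0.145% of the counts of a library. *miR-16-5p* ranked 82 to 97 among all miRs of a library and *miR-15a-5p* 93 to 127, while *miR-15b-5p* ranked 163 to 200 and *miR-497a-5p* 280 to 446. The order *miR-16-5p*, *miR-15a-5p*, *miR-15b-5p*, *miR-497a-5p* and *miR-195a-5p* held in 12 of 12 libraries at every step. Mature miRs have nearly the same length, so counts can be compared between them without a length correction, although adapter ligation favours some sequences over others and the order of counts need not be the order of molecules.

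*miR-16-5p*, the most abundant member and a repressor of cyclin D and *Bcl2* mRNAs, was at 564, 625.3, 733, 537 and 605 CPM in WT libraries 1 to 5. In *Mir483*Pat-KO it ranged from 524 CPM through a median of 606 CPM to 730.0 CPM. Every mutant value lay below the highest WT value and the ranges overlapped almost fully. The means were 613 ± 75.7 CPM (SD, n = 5) and 635 ± 80.4 CPM (SD, n = 7). Its log2 fold change, *Mir483*Pat-KO over WT, was 0.054 (SE 0.098, 95% interval -0.15 to 0.26, Benjamini-Hochberg adjusted p = 0.840 from the quasi-likelihood F-test of edgeR), and its sign turned to -0.017 when counts were scaled by library size alone.

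*miR-15a-5p*, which shares the *Dleu2* cluster and the seed of *miR-16-5p*, was at 382, 352, 408.3, 414 and 362 CPM in WT libraries 1 to 5. In *Mir483*Pat-KO libraries 1 to 7 it was at 422.7, 461, 449.8, 454, 463, 603 and 432 CPM. All 7 mutant libraries lay above every WT library, although the lowest mutant (422.7 CPM) was only just above the highest WT (414 CPM), and mutant 6 stood apart from the rest. CPM ranges of the groups did not overlap for 2.84% of the 388 miRs tested. The separation depended on scaling: it was 7 of 7 mutants with TMM and with RLE size factors, and 6 of 7 with upper-quartile scaling or library size alone.

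The mean of *miR-15a-5p* was 384 ± 27.3 CPM in WT (SD, n = 5) and 469.5 ± 60.8 CPM in *Mir483*Pat-KO (SD, n = 7). Its log2 fold change was 0.29 (SE 0.089, 95% interval 0.11 to 0.48), a 1.23-fold higher level, which did not pass the threshold of 0.05 with edgeR's quasi-likelihood F-test (Benjamini-Hochberg adjusted p = 0.0988 over 388 miRs). By unadjusted p it ranked 17 of the 388. Under DESeq2 the log2 fold change was 0.28 and the adjusted p 0.0439, past the threshold, where 9.61% of all miRs with an adjusted p were called. Without mutant 6 the log2 fold change was 0.22 (edgeR adjusted p = 0.136), and within the lower animal-number range alone it was 0.19 (edgeR adjusted p = 0.500). With the range as a factor over all libraries it was 0.27 (edgeR adjusted p = 0.152). With the library index, which runs parallel to genotype, as a covariate it was 0.12 (edgeR adjusted p = 0.980).

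*miR-15b-5p*, the member transcribed within *Smc4*, was at 105, 110.2, 109, 144 and 137 CPM in WT libraries 1 to 5. In *Mir483*Pat-KO it ranged from 132 CPM through a median of 139 CPM to 181 CPM. Only 3 of 7 mutants lay above every WT library, and 2 of 5 WT libraries (144 and 137 CPM) lay within the mutant range. The means were 121 ± 18.2 CPM (SD, n = 5) and 147 ± 17.1 CPM (SD, n = 7). The log2 fold change of *miR-15b-5p* was 0.29 (SE 0.11, 95% interval 0.049 to 0.52), and its edgeR adjusted p was 0.191. Its sign turned, to -0.11, with the library index as a covariate (edgeR adjusted p = 0.980).

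*miR-497a-5p*, from the chromosome 11 cluster, was at 22.3, 17.5, 14.8, 19.2 and 12.1 CPM in WT libraries 1 to 5. In *Mir483*Pat-KO it ranged from 5.43 CPM through a median of 24.7 CPM to 28.3 CPM. Mutants lay both above and below the whole WT range, and single libraries held as few as 4 and at most 26 counts. Its log2 fold change was 0.30 with an SE of 0.33 and a 95% interval of -0.39 to 1.00 (edgeR quasi-likelihood F-test, adjusted p = 0.734). The estimate for *miR-497a-5p* was 0.46 without mutant 7 and 0.20 without WT 5, and 1.34 with the library index as a covariate (edgeR adjusted p = 0.759).

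*miR-195a-5p*, the partner of *miR-497a-5p*, was at the limit of detection. It had 6, 4, 0, 2 and 0 counts in WT libraries 1 to 5 and no more than 2 counts in any mutant library, with 0 counts in 6 of 12 libraries. By counting error alone, a count of 0 allows up to 3 counts, or 2.58 to 4.68 CPM depending on the library. Across all miRs, 55 of 794 entries expected at 10 to 20 counts were 0, so a 0 can also stand for more than 3 counts. The counts of both groups were at or near this floor, no fold change was taken, and the filter on low counts removed *miR-195a-5p* from the test. Its 18 counts in all libraries were 0.285% of the 6321 counts of *miR-16-5p*, from which it differs at 2 bases, and whether any of them were misread *miR-16-5p* was not tested.

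**Figure D1:**
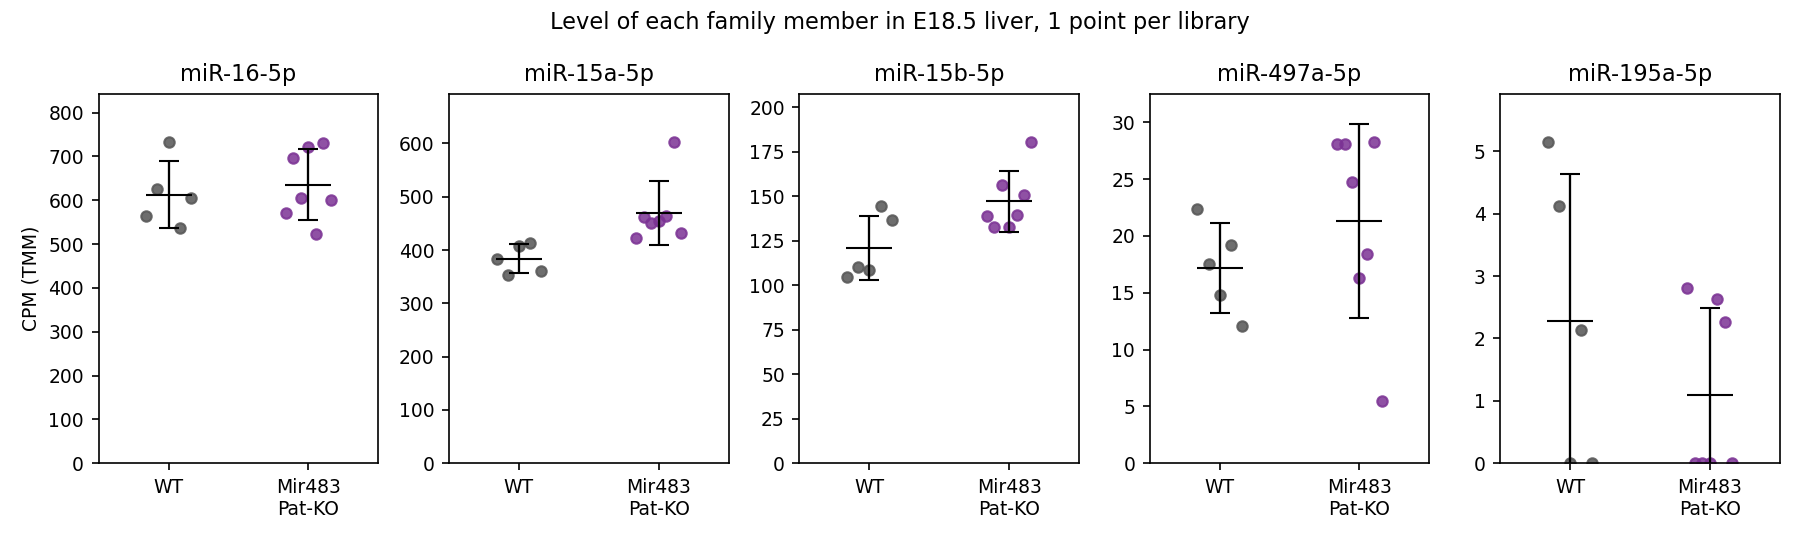
Level of each of the 5 members in CPM (TMM-scaled, linear axes from 0, a scale of its own in each panel), with 1 point per library, WT in grey (n = 5) and *Mir483*Pat-KO in purple (n = 7); the horizontal bar is the mean and the whiskers the SD, cut at 0. All 7 mutant points of *miR-15a-5p* lie above its WT points with mutant 6 at 603 CPM, *miR-16-5p* overlaps almost fully, and *miR-195a-5p* is at 0 in 6 of 12 libraries.

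Across the members, 4 were tested and 0 passed edgeR's adjusted threshold, against 2.06% of the 388 miRs tested. Unadjusted, 2 of the 4 (*miR-15a-5p* and *miR-15b-5p*) had p under 0.05, both with the higher level in *Mir483*Pat-KO, where 17.5% of all miRs had such a p and 9.54% had it with a higher level in the mutant. All 4 had fold changes above 0 with TMM, whereas *miR-16-5p* was below 0 with library size alone. Their median log2 fold change was 0.29, beside 0.0028 over all 388 miRs, of which 193 were lower in the mutant.

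The members differed in how far libraries of one genotype spread beyond counting error. The SD of the log2 level within genotype was 0.18 for *miR-16-5p*, where counting alone gives 0.064, and 0.15 for *miR-15a-5p*, where counting gives 0.077. For *miR-15b-5p* it was 0.18 against a counting SD of 0.14, and for *miR-497a-5p* 0.70 against 0.40. As a ratio to its counting error, the spread of *miR-16-5p* was the largest of the 4 and that of *miR-15b-5p* the smallest. Counting error shrinks as counts rise, so this ratio also depends on read depth. The SD itself was largest for *miR-497a-5p*, where mutant 7 had 4 counts (5.43 CPM) and the other mutants lay at 16.3 to 28.3 CPM.

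Summed over the family, the level was 1137 ± 73.3 CPM in WT (SD, n = 5) and 1275 ± 126 CPM in *Mir483*Pat-KO (SD, n = 7), a log2 ratio of 0.16. WT libraries lay between 1079 and 1265 CPM and mutants between 1147 and 1514 CPM, and 3 of 7 mutants exceeded every WT library. Within the lower animal-number range the log2 ratio was 0.14, and with library size alone it was 0.094. The sum shares its members with the values above and was not tested separately.

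As shares of the family, which need no scaling between libraries, *miR-16-5p* made up 53.8 ± 3.84% in WT (SD, n = 5) and 49.8 ± 2.94% in *Mir483*Pat-KO (SD, n = 7). *miR-15a-5p* made up 33.8 ± 2.34% and 36.8 ± 2.37%, *miR-15b-5p* 10.7 ± 1.83% and 11.7 ± 1.80%, and *miR-497a-5p* 1.52 ± 0.407% and 1.67 ± 0.66%. *miR-15a-5p* and *miR-16-5p* together took 84.7% to 90.2% of the family in every library. The group ranges of each share overlapped.

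**Figure D2:**
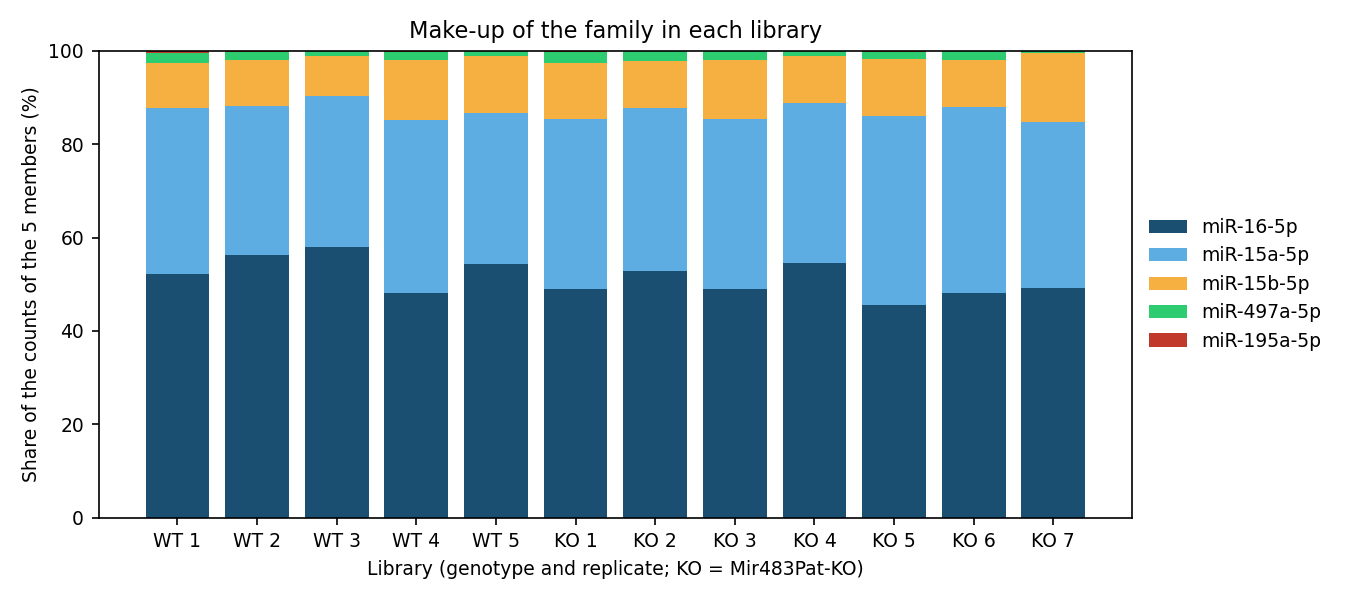
Share of each member in the summed counts of the 5 members (%), with 1 stacked bar per library. *miR-16-5p* fills 45.6% to 58.0% and *miR-15a-5p* 31.8% to 40.4% of every bar, and *miR-195a-5p* is hardly visible at up to 0.478%.

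The ratio of *miR-15a-5p* to *miR-16-5p* within a library was 0.633 ± 0.0907 in WT (SD, n = 5) and 0.744 ± 0.0882 in *Mir483*Pat-KO (SD, n = 7), with 2 of 7 mutants above every WT library. In the lower animal-number range it was 0.642 in WT and 0.694 in mutants, and in the upper range 0.597 in the only WT and 0.810 in mutants. The ratio of *miR-15a-5p* to *miR-15b-5p* was the same in both groups within the spread, at 3.22 ± 0.482 in WT (SD, n = 5) and 3.22 ± 0.512 in *Mir483*Pat-KO (SD, n = 7). No test was made on these ratios.

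The opposite arms of the same hairpins had fold changes on both sides of 0. Of the 6 listed 3p arms, 4 passed the filter on low counts, 2 with fold changes above 0 and 2 below, and 0 had p under 0.05. *miR-15a-3p* was at 32.1 CPM in WT and 29.5 CPM in *Mir483*Pat-KO (log2 fold change -0.12, 95% interval -0.54 to 0.30, edgeR adjusted p = 0.833), with 17 to 41 counts per library. *miR-15b-3p* was at 144 and 154 CPM (log2 fold change 0.099, edgeR adjusted p = 0.747). The intervals of the 3p arms overlapped those of their 5p arms, and the difference between the arms was not tested. *miR-195a-3p* had 0 counts in 8 libraries and *miR-497a-3p* had none in any library.

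The 3 hairpin types differed in which arm was read more often. *miR-15a* gave 12.4 ± 2.34 counts of the 5p arm per count of the 3p arm in WT (SD, n = 5) and 16.2 ± 2.25 in *Mir483*Pat-KO (SD, n = 7), and 5 of 7 mutants lay above every WT library. *miR-16* gave 4.40 ± 0.706 and 4.45 ± 0.688, counting both of its 3p arms. *miR-15b* was nearly balanced, at 0.861 ± 0.225 in WT and 0.975 ± 0.186 in mutants, and its 5p arm exceeded its 3p arm in 3 of 12 libraries. *miR-322* lay on the other side of balance, at 0.444 counts of 5p per count of 3p in WT and 0.475 in mutants.

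**Figure D3:**
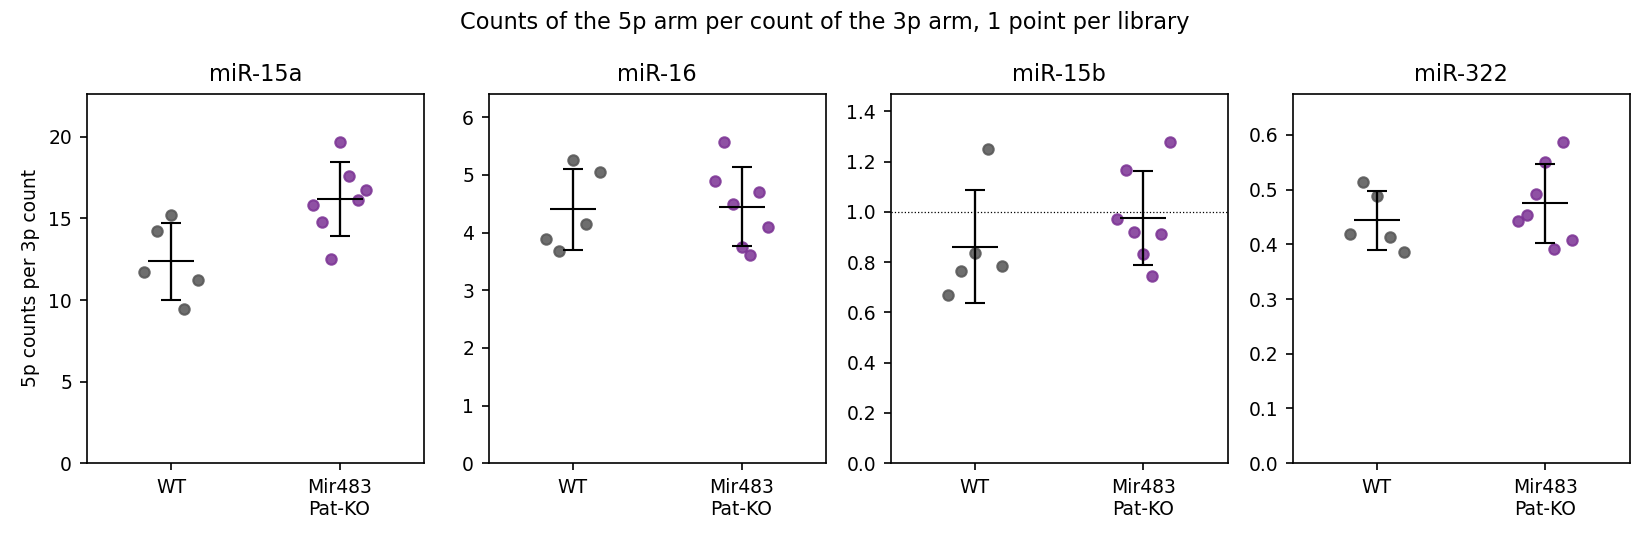
Counts of the 5p arm per count of the 3p arm for the *miR-15a*, *miR-16*, *miR-15b* and *miR-322* hairpins, with 1 point per library, the mean as a bar and the SD as whiskers (linear axes from 0, a scale of its own in each panel; the dotted line marks equal counts). *miR-15a* lies between 9.44 and 19.7 in all libraries and *miR-15b* between 0.670 and 1.28.

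The 3p arms also separated the *miR-16* genes, whose 5p product is the same. *miR-16-1-3p* was at 65.7 CPM in WT and 75.6 CPM in *Mir483*Pat-KO (log2 fold change 0.21, edgeR adjusted p = 0.583), and *miR-16-2-3p* at 75.1 and 69.5 CPM (log2 fold change -0.11, edgeR adjusted p = 0.747). *miR-16-1-3p* exceeded *miR-16-2-3p* in 6 of 12 libraries, and their order did not differ beyond the spread. There were 0.906 ± 0.169 counts of *miR-16-1-3p*, from the *Dleu2* cluster, per count of *miR-16-2-3p*, from the *Smc4* cluster, in WT (SD, n = 5) and 1.09 ± 0.244 in mutants (SD, n = 7).

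Of the other miRs with the same seed, 4 of 5 had no counts in any library. The exception was *miR-322-5p*, the mouse counterpart of human miR-424 and a product of an X-linked cluster active in growing fetal tissues. At 573 CPM in WT and 579 CPM in *Mir483*Pat-KO it stood close to *miR-16-5p*, which exceeded it in 9 of 12 libraries. It took 33.5 ± 2.30% of all counts with this seed in WT (SD, n = 5) and 31.2 ± 2.69% in *Mir483*Pat-KO (SD, n = 7). Its log2 fold change was 0.015 (SE 0.096, edgeR adjusted p = 0.973), with a 95% interval of -0.19 to 0.22.

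Other miRs known to act on the cell cycle were read from a list of 6, namely *miR-503-5p*, a further relative of the family, the proliferation-linked *miR-17-5p*, *miR-20a-5p*, *miR-93-5p* and *miR-106b-5p*, and the p53-induced *miR-34a-5p*. All 6 were tested, 2 had fold changes above 0 and 4 below, and 0 passed the threshold, with the lowest edgeR adjusted p at 0.480 (*miR-93-5p*, log2 fold change 0.11). *miR-503-5p* had a log2 fold change of 0.31 (95% interval -0.17 to 0.79, edgeR adjusted p = 0.528). *miR-17-5p*, at 1199.9 CPM in WT, was above every member of the family.

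**Figure D4:**
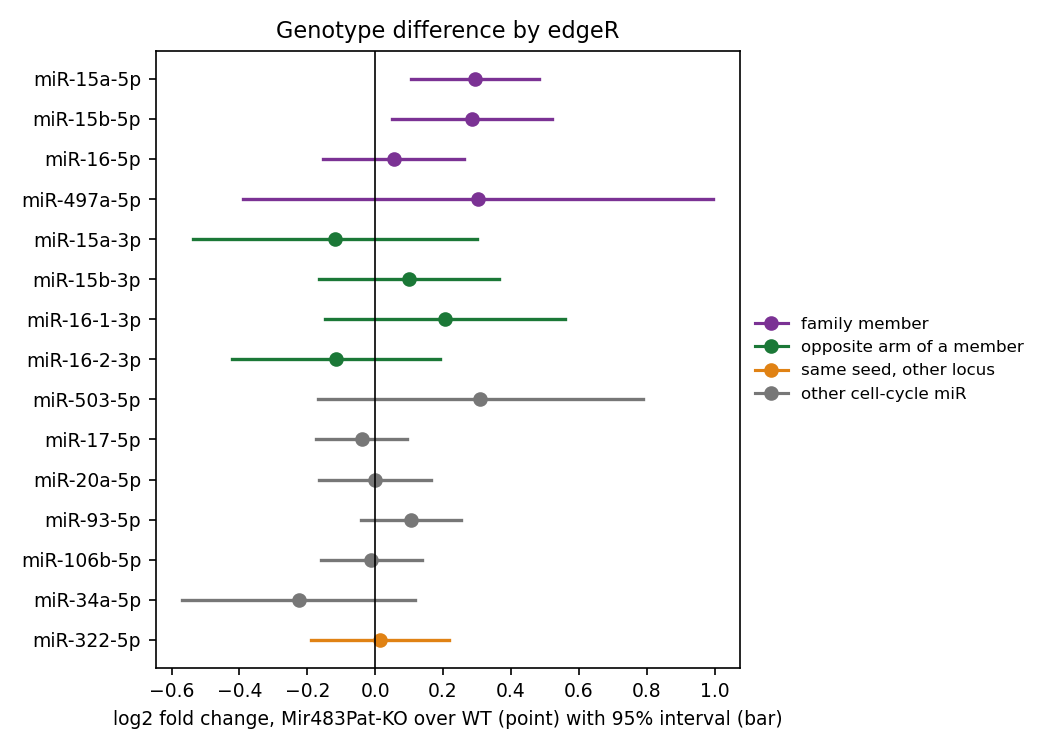
Log2 fold change, *Mir483*Pat-KO over WT (points), with its 95% interval (bars) by edgeR, for the 4 tested members (purple), 4 tested opposite arms (green), *miR-322-5p* (orange) and 6 other cell-cycle miRs (grey). The intervals of *miR-15a-5p* (0.11 to 0.48) and *miR-15b-5p* (0.049 to 0.52) lie above 0 before adjustment, and every other interval crosses 0.

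In whole liver, fewer cells of a type and less RNA per cell cannot be told apart. Erythroid miRs had, with TMM, the same sign of difference as *miR-15a-5p* and *miR-15b-5p*. All 4 of 4 (*miR-451a*, *miR-144-3p*, *miR-144-5p* and *miR-486a-5p*) had fold changes above 0, with a median of 0.19. In the edgeR test 2 had unadjusted p under 0.05, as did 17.5% of all 388 miRs tested, and 0 passed the adjusted threshold. Their summed level ran from 23848 to 31974 CPM in WT and from 25913 to 37810 CPM in *Mir483*Pat-KO. White blood cell miRs summed to 11043 to 14595 CPM in WT and 13119 to 14759 CPM in mutants, with 3 of 4 listed miRs tested, all 3 with fold changes above 0 and 0 called. The untested one, *miR-150-5p*, lay the other way, at 11.5 CPM in WT and 8.14 CPM in mutants, with at most 16 counts in a library. Hepatocyte miRs, led by *miR-122-5p*, summed to 173957 to 202014 CPM and 165731 to 214923 CPM, with 2 of 4 above 0 and 0 called. Stellate cell miRs summed to 1866 to 3421 CPM in WT and 2197 to 3526 CPM in mutants. Among them *miR-199a-3p* had a log2 fold change of 0.47 (edgeR unadjusted p = 0.0139, adjusted p = 0.176) and the other 2 were below 0. Endothelial miRs summed to 953 to 1261 CPM and 725 to 1221 CPM, with both below 0, a median of -0.19 and 0 called. The part of these cell types in the levels of the family was not tested.

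No 2 members passed the test of co-variation across libraries. Correlations were computed on log2 CPM over the 12 libraries for the 7 mature miRs of the *miR-15* and *miR-16* hairpins with at least 10 counts in every library, giving 21 pairs, each with a permutation test of 100000 resamples. The lowest Benjamini-Hochberg adjusted p of the 21 pairs was 0.613 for Pearson's r and 0.477 for Spearman's rho. Over 45753 pairs of 303 miRs the median r was 0.0025, and 8.37% of pairs exceeded 0.5. Spread beyond counting error differed among the 7 miRs. The SD of the log2 level within genotype was 0.29 for *miR-15a-3p*, with a counting SD of 0.29, and 0.18 for *miR-16-5p*, with a counting SD of 0.064. Where counting error makes up most of the spread, r is drawn towards 0 and cannot show whether 2 miRs vary together.

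*miR-15a-5p* and *miR-15b-5p*, from different clusters, had r = 0.49 (permutation p = 0.105, adjusted p = 0.613) and rho = 0.50 (permutation p = 0.103, adjusted p = 0.477) over 12 libraries. Without the 2 libraries farthest from the median of *miR-15a-5p* (mutant 6 and WT 2), r was 0.38. With the genotype means taken off it was 0.041 and within the 7 mutants -0.030, so the pooled relation did not hold in either of these. Within the lower animal-number range, with 4 WT and 4 mutants pooled, it was 0.71. No correlation was computed within WT alone.

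*miR-15a-5p* and *miR-16-5p*, which share the *Dleu2* cluster, had r = 0.38 (permutation p = 0.232, adjusted p = 0.704) and rho = 0.13 (permutation p = 0.700, adjusted p = 0.809). Here r was 0.39 with genotype means off, 0.55 within mutants and 0.34 within the lower animal-number range, but 0.16 without mutant 6 and WT 2. Leaving out mutant 6 alone gave 0.097 and leaving out WT 2 alone gave 0.43, so the relation rested on mutant 6. *miR-15b-5p* and *miR-16-5p*, which share the *Smc4* cluster, had r = -0.15 (permutation p = 0.640, adjusted p = 0.704) and rho = -0.23 (permutation p = 0.468, adjusted p = 0.809). Their r was -0.33 without mutant 7 and WT 1, -0.33 with genotype means off, -0.20 within mutants and -0.23 within the lower animal-number range.

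**Figure D5:**
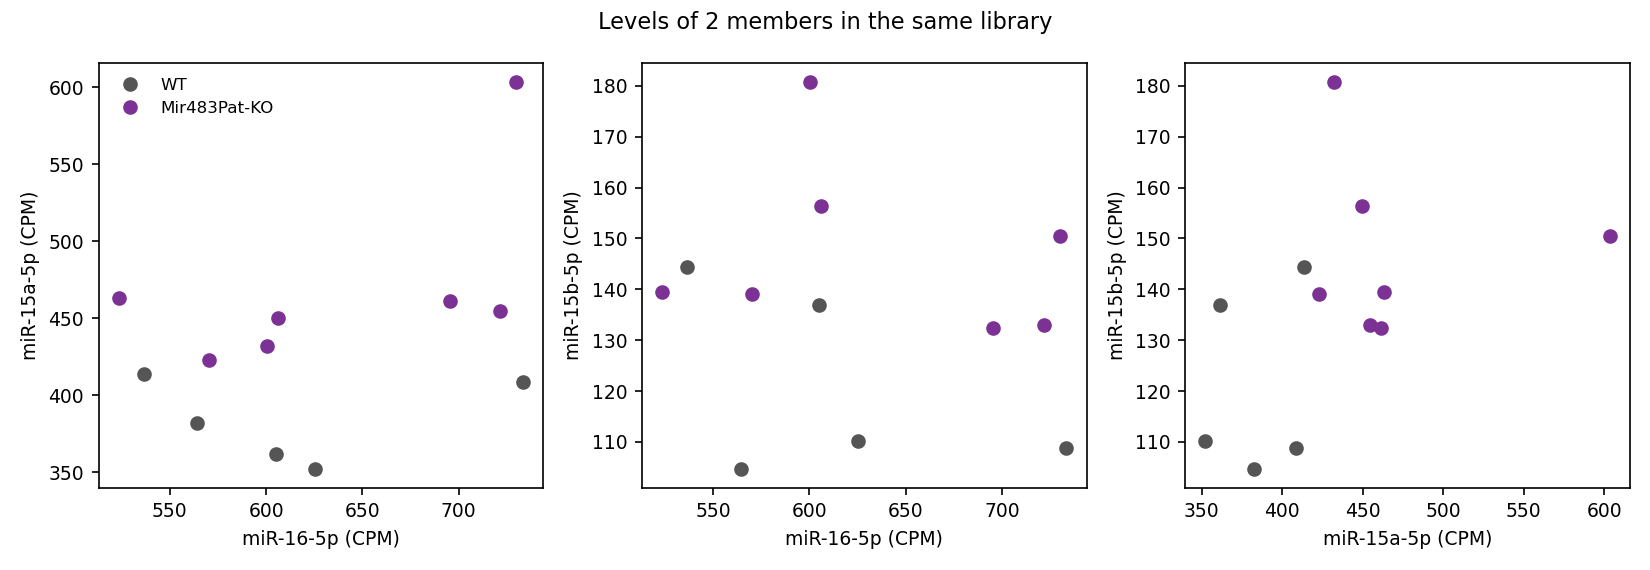
Levels of *miR-16-5p*, *miR-15a-5p* and *miR-15b-5p* plotted against each other in CPM (linear axes not starting at 0), with 1 point per library, WT in grey and *Mir483*Pat-KO in purple. No pair lines up on a straight line (r = 0.38, -0.15 and 0.49 from left to right), and mutant 6 stands alone at 603 CPM of *miR-15a-5p*.

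Arms that only one cluster encodes allow co-variation to be read between mature miRs of a single cluster, while the primary transcript itself was not measured. Within the *Smc4* cluster, *miR-15b-5p* and *miR-16-2-3p*, which only this cluster encodes, had r = -0.55 (permutation p = 0.0624, adjusted p = 0.613) and rho = -0.61 (permutation p = 0.0405, adjusted p = 0.477). For this pair r was -0.66 without mutant 7 and WT 1, -0.56 with genotype means off, -0.40 within mutants and -0.59 within the lower animal-number range. Within the *Dleu2* cluster, *miR-15a-5p* and *miR-16-1-3p* had r = 0.45 (permutation p = 0.146, adjusted p = 0.613) and rho = 0.50 (permutation p = 0.0994, adjusted p = 0.477). For this pair r was 0.29 without mutant 6 and WT 2, 0.37 with genotype means off, 0.41 within mutants and 0.13 within the lower animal-number range. Other pairs of the *Smc4* cluster had r = 0.12 (*miR-15b-5p* and *miR-15b-3p*) and -0.16 (*miR-15b-3p* and *miR-16-2-3p*). Those of the *Dleu2* cluster had r = 0.23 (*miR-15a-5p* and *miR-15a-3p*) and -0.20 (*miR-15a-3p* and *miR-16-1-3p*). A pair from different clusters, *miR-15a-3p* and *miR-16-2-3p*, had r = -0.52. None of these pairs passed the correction.

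The miRs whose log2 level across the 12 libraries was most like the summed family, among 161 others with at least 100 counts in every library, were *miR-411-5p* (r = 0.84), *miR-541-5p* (r = 0.80) and *miR-673-5p* (r = 0.78). All 3 lie far from the family in the genome, within the imprinted *Dlk1-Dio3* domain. With genotype means taken off, r was 0.80, 0.67 and 0.64. They are the highest of 161 values and share libraries and scaling with the family, and they are given as a description.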

How the data were processed

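The authors extracted total RNA from E18.5 female livers, made libraries with the TruSeq Small RNA kit and counted mature miRs with miRge3.0. The deposited table holds raw counts for 1927 mouse miRs in 12 libraries. No miR had a count of 1, and 55 of 794 entries expected at 10 to 20 counts were 0, a feature of the table that touches low members. Trimming, mismatch rules and the miR reference are not given in the sources used here. No libraries were duplicates: the lowest chi-square per degree of freedom among 31 same-genotype pairs was 5.40.

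The members and lists were chosen with earlier results of these data known. Genotypes were compared with edgeR 4.0.16 (filterByExpr, 388 miRs kept; TMM; quasi-likelihood F-test; Benjamini-Hochberg, threshold 0.05), with DESeq2 1.42.0 and limma 3.58.1 as alternatives. CPM used TMM-scaled sizes of the kept miRs. Correlations used log2 CPM with a prior count of 2 and two-sided permutation tests. Named miRs were all members, all listed miRs of the hairpins, seed and cell-cycle list, and the 3 most like the summed family. The floor of 3 counts covers counting error only, while the 95% intervals and p-values come from the edgeR fit and include the spread between these fetuses. The code was tested on simulated counts.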

Additional observations from a re-analysis of the deposited data

Results flagged for a closer look

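Over 52 groups of values, 4 held a library far from the rest of its genotype by Dixon's criterion, and chance marks about 1 group in 20. The summed level of the family was 1265 CPM in WT 3, where the other WT libraries lay between 1079 and 1116 CPM. *miR-15a-5p* was at 603 CPM in mutant 6, where the other mutants lay between 422.7 and 463 CPM. The ratio of 5p to 3p counts of *miR-15b* was 1.25 in WT 4 and 0.670 to 0.835 in the other WT libraries. *miR-16-2-3p* was at 85.5 CPM in mutant 4 and 64.5 to 70.1 CPM in the other mutants.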

How the results depend on the processing

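No member passed the adjusted threshold under 24 of 25 alternatives. DESeq2 called 1 member, *miR-15a-5p* (log2 fold change 0.28, adjusted p = 0.0439), and 27 miRs of all against 8 for edgeR. The sign turned for 2 members: *miR-15b-5p* to -0.11 with the library index as a covariate, which parallels genotype and gave 0.12 for *miR-15a-5p* and 1.34 for *miR-497a-5p*, and *miR-16-5p* to -0.017 with library size alone. The correlation of *miR-15a-5p* with *miR-15b-5p* turned to -0.030 within mutants, and that of *miR-15b-5p* with *miR-16-5p* ranged from -0.33 to 0.042 when single libraries were left out, positive only without WT 3. The cause was not tested.

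Leaving out single libraries gave 0.22 to 0.32 for *miR-15a-5p* (edgeR adjusted p 0.0790 to 0.265) and 0.22 to 0.35 for *miR-15b-5p*, and 0.20 to 0.46 for *miR-497a-5p*. The replicate block (10 libraries; same-numbered deviations correlated at -0.24 to 0.23 and the fetuses are different animals, so numbers do not pair them) gave 0.21 for *miR-15a-5p* (adjusted p = 0.348), with 3 of 376 miRs called. The lower animal-number range alone was chosen after seeing the data. Over all miRs, 14 were called with library size alone, 5 with the range as a factor, 3 with the index and 2 of 377 in the lower range. Low counts limit *miR-497a-5p* and *miR-195a-5p*; requiring 10 counts in every library removes both.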
